A study of Mus musculus with 463 samples.

Results

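Pdx1-low cells of the ventral pancreatic region were split at E10.5 by a surface antigen of hepatoblasts, Liv2, and the cells with and without it were sequenced singly. The cells were taken by their deposited names: 54 were sorted Pdx1-GFP-low and Liv2+, and 59 were sorted Pdx1-GFP-low and Liv2-, which makes 113 of the 447 single cells of the series. Liv2+ cells came in 2 numbered sets, set 1 with 37 cells and set 2 with 17 cells. Liv2- cells came in 2 numbered sets, set 1 with 41 cells and set 2 with 18 cells.

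The embryos carried a Pdx1-GFP transgene, so that green fluorescence reported activity of the Pdx1 promoter, and Pdx1-GFP-low marks dim cells of the ventral Pdx1-expression region. No culture and no agent is given for any of these cells. The groups set beside the 2 gates were 39 Pdx1-GFP-low ventral cells sorted with no Liv2 gate, 39 Pdx1-GFP-high ventral cells and 23 liver bud cells sorted as Liv2+, all at E10.5. The statistical fit also took in further sorted Pdx1 groups of the ventral and dorsal regions, some of them at E9.5. No label states what a set number stands for, be it an embryo, a litter, a day of sorting or a plate. P-values therefore reflect the spread from set to set and nothing more, and that spread may be technical.

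The ventral foregut endoderm gives rise to liver, extrahepatic bile duct, gallbladder and ventral pancreas from neighbouring or shared progenitors. Sox17 marks and is needed for the extrahepatic biliary primordium in mouse, Pdx1 marks the pancreatic domain and the biliary primordium beside it, and Hhex is an early homeobox gene of the whole region. Hepatoblasts, the progenitors of hepatocytes and of the bile ducts inside the liver, are known for alpha-fetoprotein (Afp), albumin (Alb) and a growing set of secreted plasma proteins. Liv2 is known through an antibody that binds mouse hepatoblasts. No source used here gives the gene of the antigen, so the gate could not be checked by its own transcript.

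The windows of 120 bases before the start are printed for 3 hepatoblast genes on which the comparison turns and for Pdx1, whose level lay in the other order. They are Afp at chr5:90490594-90490713, Alb at chr5:90460750-90460869, the fibrinogen alpha chain gene Fga at chr3:83026033-83026152 and Pdx1 at chr5:147269977-147270096, all on the plus strand. The sequences are RefSeq's for GRCm38.p6, read 5′ to 3′ toward the start site. The GENCODE annotation starts Pdx1 at 147269959 and Fga at 83026076. Against those starts the Pdx1 window lies inside the gene, and the Fga window lies partly inside it. Capitals mark the CCAAT box, a general promoter element, spelled CCAAT or, on the other strand, ATTGG.
Afp: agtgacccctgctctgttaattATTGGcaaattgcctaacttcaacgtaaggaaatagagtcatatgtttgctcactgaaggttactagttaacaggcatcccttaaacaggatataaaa
Alb: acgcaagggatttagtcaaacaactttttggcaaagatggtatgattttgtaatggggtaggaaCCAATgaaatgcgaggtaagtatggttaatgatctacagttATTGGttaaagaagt
Fga: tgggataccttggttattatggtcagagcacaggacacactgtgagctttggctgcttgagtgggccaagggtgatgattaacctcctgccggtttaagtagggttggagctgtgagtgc
Pdx1: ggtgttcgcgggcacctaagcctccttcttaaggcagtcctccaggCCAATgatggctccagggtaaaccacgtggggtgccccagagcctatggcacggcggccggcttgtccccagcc

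Alb held 2 matches, Afp and Pdx1 held 1 each and Fga held 0. Either spelling was found in 6994 of 32851 such windows (21.3%), which belong to 6548 of 27025 genes (24.2%). Of the 28 hepatoblast genes listed, 23 had a window that was read, and 4 of these 23 held the element (17.4%). It was found in 3 of 13 biliary genes and 6 of 13 pancreatic genes with a window. A match describes these letters and is not evidence of binding. Afp and Alb are neighbours on chromosome 5, and Fgg, Fga and Fgb lie next to each other on chromosome 3, in a stretch that starts at 83007724 with Fgg and ends at 83049863 with Fgb (GRCm38).

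The sums of gene reads were 38250232 and 24226000 in the Liv2+ sets 1 and 2, against 40576399 and 26578746 in the Liv2- sets 1 and 2. A cell had a median of 1129979 gene reads and 10029 detected genes in Liv2+ cells and of 1044342 gene reads and 9558 detected genes in Liv2- cells. The median share of spike-in reads was 1.77% and 2.28% in the Liv2+ sets, against 2.51% and 3.17% in the Liv2- sets, so the gates did not overlap in this measure, and its part in the results was not tested. No pair of the 113 cells had identical counts. Set levels are given as CPM, a gene's reads in the summed cells of a set scaled to that set's library size in the edgeR fit. This size includes the TMM factor, which scales sets to each other, so CPM do not sum to the same total in every set. Over all genes tested they summed to 1.01433e+06 and 1.0305e+06 in the Liv2+ sets and 946691 and 999561 in the Liv2- sets. In the liver bud sets they summed to 1.10212e+06 and 1.18333e+06. A set's sum cannot tell more expressing cells from more RNA per cell, and the cells are therefore described after the sums.

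Both gates carried the endodermal identity that the label gives them. Hhex had 414 and 466 CPM in the Liv2+ sets and 436 and 517 CPM in the Liv2- sets, and it was at 10 CPM or more in 54 of 54 Liv2+ cells and 59 of 59 Liv2- cells. Col1a1, the collagen of mesenchyme, had no reads in either gate. Cdh5, the cadherin of endothelium, stayed under 1 CPM in all 4 sets, and Ptprc, the pan-leukocyte antigen, was at 0 in both Liv2+ sets and reached 0.0376 CPM in one Liv2- set. The endothelial list summed to 98.8 and 153 CPM in the Liv2+ sets and 94.5 and 153 CPM in the Liv2- sets. Of its 10 members, 5 were under 1 CPM in all 4 sets. Summed over its list, mesenchyme had 138 and 145 CPM in the Liv2+ sets and 178 and 211 CPM in the Liv2- sets, and 9 of its members were at 0 in all 4 sets. The erythroid list summed to 12.8 and 17 CPM in the Liv2+ sets and 6.4 and 2.67 CPM in the Liv2- sets, and whether it has a part in any result was not tested.

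Genes of secreted plasma proteins had the highest ratios of Liv2+ to Liv2- among the hepatoblast genes. Fga had 94.1 and 104 CPM in the Liv2+ sets, against 1.14 and 1.17 CPM in the Liv2- sets. Fgb had 465 and 512 CPM in the Liv2+ sets, against 58.3 and 49.3 CPM in the Liv2- sets. The third fibrinogen gene, Fgg, had 193 and 276 CPM in the Liv2+ sets, against 24.8 and 28.0 CPM in the Liv2- sets. The fibrinogen chains, which are secreted as 1 complex and form the clot, were thus higher in every Liv2+ set than in every Liv2- set. In the edgeR quasi-likelihood fit over 37 sets of 11 sorted groups, the log2 fold change was 6.41 (SE 2.62) for Fga, 3.18 (SE 1.90) for Fgb and 3.15 (SE 0.91) for Fgg. None of them passed: each had a Benjamini-Hochberg adjusted p of 1 in that edgeR fit.

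Afp, the fetal counterpart of albumin, had 5515 and 6885 CPM in the Liv2+ sets, against 1735 and 1156 CPM in the Liv2- sets, a log2 fold change of 2.1 (SE 1.17). Alb had 341 and 236 CPM in the Liv2+ sets, against 56.3 and 42.9 CPM in the Liv2- sets, a log2 fold change of 2.54 (SE 2.06). For both genes the sets of the 2 gates did not overlap. The iron carrier transferrin (Trf) had 39.3 and 39.4 CPM in the Liv2+ sets, against 2.75 and 1.17 CPM in the Liv2- sets, a log2 fold change of 4.32 (SE 1.19). Rbp4, which carries retinol in plasma, had 521 CPM in both Liv2+ sets, against 129 and 74.7 CPM in the Liv2- sets, a log2 fold change of 2.35 (SE 0.86). Antithrombin (Serpinc1), which restrains clotting, had 60.5 and 68.2 CPM in the Liv2+ sets, against 5.95 and 4.67 CPM in the Liv2- sets. In edgeR the adjusted p of these 5 genes was 1 as well, and none of the Liv2+ values lay within the range of the Liv2- sets.

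Apolipoprotein genes followed the same order. Apoa1, the main protein of high-density lipoprotein, had 150 and 213 CPM in the Liv2+ sets, against 17.49 and 5.80 CPM in the Liv2- sets, a log2 fold change of 3.96 (SE 1.62). Apob, the backbone of low-density lipoprotein, had 22 and 20.6 CPM in the Liv2+ sets, against 1.45 and 0.0753 CPM in the Liv2- sets. Apom, a carrier of sphingosine-1-phosphate, had 142 and 168 CPM in the Liv2+ sets, against 31.7 and 43.5 CPM in the Liv2- sets. Serpina6, the corticosteroid-binding globulin, had 198 and 442 CPM in the Liv2+ sets, against 43.4 and 24.9 CPM in the Liv2- sets. Among 18 genes listed for lipid and bile handling, which share Apoa1, Apoa2 and Apob with the hepatoblast list and of which 16 were tested, 10 had both Liv2+ sets above both Liv2- sets, beside 15.2% of all 17433 genes tested, and none had the reverse order, beside 16.9%. The list's median log2 fold change was 1.86, beside 0.00 over all genes tested, and 0 of its members passed in the edgeR fit.

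Transcription factors of the hepatoblast list differed less. Prox1, a homeobox factor that mouse hepatoblasts need to leave the liver bud, had 219 and 206 CPM in the Liv2+ sets, against 124 and 109 CPM in the Liv2- sets, a log2 fold change of 0.87 (SE 0.37). Hnf4a, a nuclear receptor of hepatocyte differentiation, had 71.3 and 78.9 CPM in the Liv2+ sets, against 51.0 and 30.3 CPM in the Liv2- sets. Cebpa, a factor of hepatocyte metabolism, differed more between the sets of a gate than between gates, with 76.9 and 7.79 CPM in the Liv2+ sets and 31.6 and 5.23 CPM in the Liv2- sets.

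Several hepatoblast genes were already high in the Liv2- sets. Ambp, a precursor of a protease inhibitor of plasma, had 1992 and 2131 CPM in the Liv2+ sets, against 1571 and 1600 CPM in the Liv2- sets. Itih2, a hyaluronan-binding plasma protein, had 1566 and 1480 CPM in the Liv2+ sets, against 970 and 973 CPM in the Liv2- sets. Dlk1, a surface protein of hepatoblasts, had 1372 and 1419 CPM in the Liv2+ sets, against 882 and 965 CPM in the Liv2- sets. Transthyretin (Ttr), the thyroxine carrier, had 1004 and 1158 CPM in the Liv2+ sets, against 780 and 956 CPM in the Liv2- sets. Scaled by gene length as well (RPKM), the hepatoblast gene with the highest mean level was Afp in the Liv2+ sets (2972) and Ambp in the Liv2- sets (1250), where Afp had 693. Ahsg and Apoh, plasma proteins of the later liver, stayed under 1 CPM in all 4 sets.

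Over the list of 28 hepatoblast genes, all of which were tested, 23 had both Liv2+ sets above both Liv2- sets and none had the reverse order, beside the same 15.2% and 16.9% of all genes tested. With a fitted change of 2-fold or more in addition, 15 of 28 were higher, beside 4.61% of all genes, and none was lower, beside 5.94%. The median log2 fold change of the list was 2.07 and that of all genes tested was 0.00. At an unadjusted p under 0.05 in edgeR, 8 of the 28 were higher, beside 0.608% of all genes, and 0 were lower, beside 0.556%. The list summed to 14996 and 16784 CPM in the Liv2+ sets, against 7083 and 6606 CPM in the Liv2- sets. The members and the lists were chosen with results of these data known, so these counts describe the list and give no independent support.

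**Figure D1:**
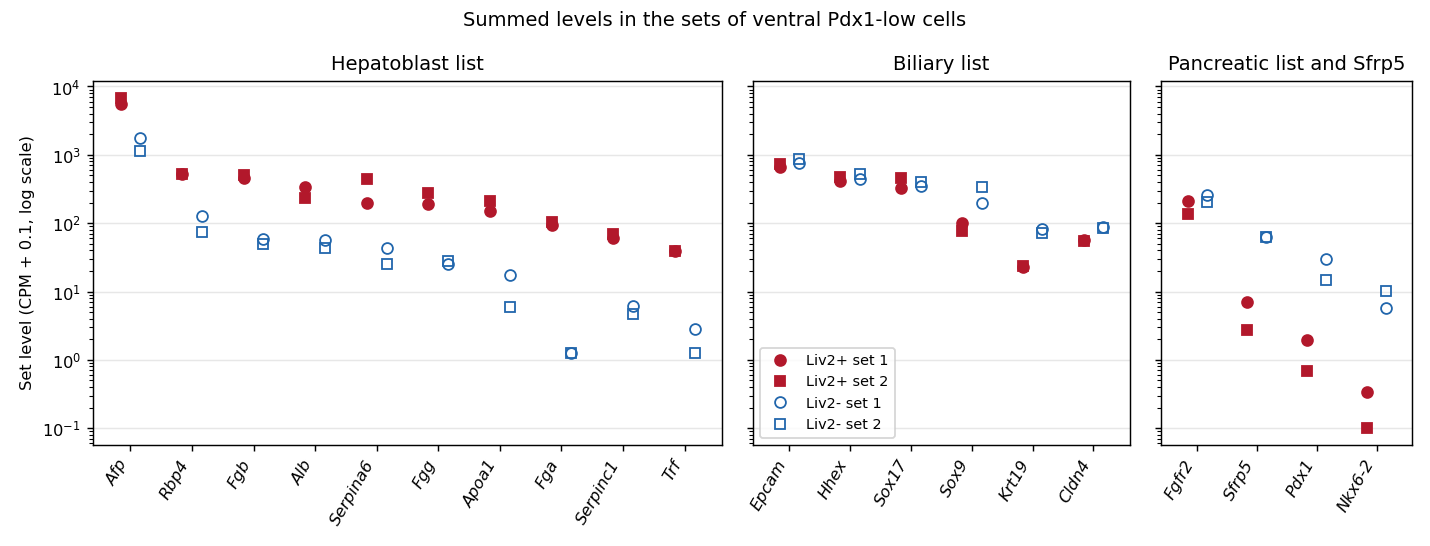
Summed level of each set on a log scale (CPM + 0.1) for 10 hepatoblast genes, 6 biliary genes and Sfrp5 with 3 genes of the pancreatic list. Filled symbols are Liv2+ sets and open symbols Liv2- sets; circles are set 1 and squares set 2. Fga, at 94.1 and 104 CPM in the Liv2+ sets against 1.14 and 1.17 CPM in the Liv2- sets, has the widest gap of the 10 hepatoblast genes, while the gates overlap for Sox17 and Hhex.

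The liver bud gave the scale for these levels. Afp had 25343 and 35471 CPM in the liver bud sets, Alb 912 and 2137 CPM, and Fga 386 and 699 CPM. For 25 of 28 hepatoblast genes both liver bud sets lay above both Liv2+ sets, beside 20.7% of all genes tested, and for 21 of 28 the order was liver bud, then Liv2+, then Liv2-, with no overlap between neighbours, beside 6.08% of all genes tested. The order is one of set sums and does not place single Liv2+ cells between the Liv2- cells and the liver bud. Liver bud and Liv2+ ventral cells share the Liv2 gate and differ in the region that was dissected and in the GFP gate.

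Biliary genes gave a smaller difference in the other direction. Sox17 did not separate the gates, with 323 and 452 CPM in the Liv2+ sets and 352 and 398 CPM in the Liv2- sets, a log2 fold change of 0.05 (SE 1.38). Sox9, a factor of biliary and pancreatic progenitors, had 100 and 76.1 CPM in the Liv2+ sets, against 197 and 339 CPM in the Liv2- sets, a log2 fold change of -1.60 (SE 1.27). The keratin gene Krt19 had 22.7 and 23.3 CPM in the Liv2+ sets, against 83.2 and 72.4 CPM in the Liv2- sets, a log2 fold change of -1.76 (SE 1.14). The tight junction gene Cldn4 had 56.5 and 55.2 CPM in the Liv2+ sets, against 87.1 and 84.6 CPM in the Liv2- sets, a log2 fold change of -0.62 (SE 0.49). Osteopontin (Spp1) had 0 and 1.15 CPM in the Liv2+ sets, against 6.30 and 16.8 CPM in the Liv2- sets. None passed in edgeR, where each adjusted p was 1.

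Of 21 biliary genes, 18 passed the filter on low counts, and 9 of these 18 had both Liv2+ sets below both Liv2- sets, beside 16.9% of all genes tested. Only 3 of them also had a fitted change of 2-fold or more, beside 5.94% of all genes, and the median log2 fold change of those tested was -0.34. The list summed to 2257 and 2445 CPM in the Liv2+ sets, against 2777 and 3063 CPM in the Liv2- sets. Epcam, an epithelial adhesion molecule, was the biliary gene with the highest mean RPKM in both gates, at 342 in the Liv2+ sets and 398 in the Liv2- sets. For 13 of 21 biliary genes both liver bud sets lay below both Liv2+ sets, beside 28.2% of all genes tested, and for 8 of 21 the order was liver bud, then Liv2+, then Liv2- from low to high, beside 6.98%. Sox17 was nearly missing from the liver bud, with 0.503 and 2.41 CPM, while the 4 sets of the ventral gates ran from 323 to 452 CPM.

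Pdx1, Nkx6-2 and Sfrp5 had lower values in the Liv2+ sets, while the median log2 fold change of the 13 pancreatic genes was -0.21. Pdx1, the gene that drives the GFP reporter, had 1.83 and 0.596 CPM in the Liv2+ sets, against 29.6 and 14.7 CPM in the Liv2- sets, a log2 fold change of -4.16 (SE 1.25). Nkx6-2, a homeobox factor of early pancreas, had 0.239 and 0 CPM in the Liv2+ sets, against 5.56 and 10.1 CPM in the Liv2- sets, a log2 fold change of -5.77 (SE 1.56). Sfrp5, a secreted Wnt antagonist, had 6.98 and 2.64 CPM in the Liv2+ sets, against 63.5 and 61.9 CPM in the Liv2- sets, a log2 fold change of -3.70 (SE 1.58). For these 3 genes every Liv2+ set lay below every Liv2- set, yet the adjusted p in edgeR was 1 for each. Pdx1-GFP-high sets had 183 to 324 CPM of Pdx1, so both gates held far less of it than the GFP-high cells. The pancreatic lineage factors Ptf1a and Nkx6-1 had no reads in either gate, and of the 13 pancreatic genes listed 3 had both Liv2+ sets below both Liv2- sets, a share near the 16.9% of all genes tested, and none the reverse.

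Signalling genes lay in both directions within their lists, and their counts stand beside 15.2% of all genes tested that were higher and 16.9% that were lower without overlap. Of the 18 tested genes listed for BMP and TGF-beta signalling, 5 had both Liv2+ sets below both Liv2- sets and 1 the reverse, and the BMP targets Id1 and Id3 were among the lower ones. Id1 had 60.2 and 111 CPM in the Liv2+ sets, against 144 and 223 CPM in the Liv2- sets, a log2 fold change of -1.10 (SE 0.91). Id3 had 88.6 and 117 CPM in the Liv2+ sets, against 125 and 300 CPM in the Liv2- sets, a log2 fold change of -1.05 (SE 0.83). Neither passed in edgeR. Lgr5, a receptor for R-spondins that strengthen Wnt signals, had 31.6 and 26.8 CPM in the Liv2+ sets, against 10.9 and 0.414 CPM in the Liv2- sets, with no overlap. Of 18 tested genes of the Wnt list, 3 including Lgr5 had this order and 5 including Sfrp5 had the reverse. Of 15 Notch genes 1 was higher and 1 lower in this sense, of 13 FGF genes 3 were higher and 4 lower, and of 15 retinoic acid genes 2 were higher and 3 lower. Their median log2 fold changes lay between -0.37 for retinoic acid and -0.02 for Notch and Wnt.

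Cell cycle, epithelial and other lists were measured in the same way, beside the same 15.2% higher and 16.9% lower over all genes tested. The G2M list summed to 4115 and 3637 CPM in the Liv2+ sets and 3488 and 2038 CPM in the Liv2- sets, with 8 of 16 genes higher without overlap and 0 lower, and its median log2 fold change was 0.52. The S phase list summed to 4269 and 5292 CPM in the Liv2+ sets and 4261 and 4440 CPM in the Liv2- sets. Of 10 epithelial genes, 7 had both Liv2+ sets below both Liv2- sets, none of them by 2-fold or more. Cldn6, a tight junction gene of early endoderm, had 998 and 1044 CPM in the Liv2+ sets, against 1254 and 1494 CPM in the Liv2- sets. Of 14 glycolysis and hypoxia genes 4 were lower and 0 higher, and Slc2a3, a glucose transporter, had 280 and 288 CPM in the Liv2+ sets, against 439 and 474 CPM in the Liv2- sets. In the remaining lists the genes without overlap, higher and lower in Liv2+ sets, were 8 and 1 of 16 tested for S phase, 5 and 0 of 7 for erythroid, 4 and 2 of 14 for delamination and migration, 1 and 3 of 17 for mesenchyme, and 1 and 2 of 11 for stress. They were 0 and 3 of 18 for endocrine, 0 and 2 of 8 for endothelial, 0 and 2 of 4 for immune, 0 and 2 of 9 for cardiac muscle, and 0 and 1 of 11 for endoderm and gut. The part of cell cycle state in the other results was not tested.

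**Figure D2:**
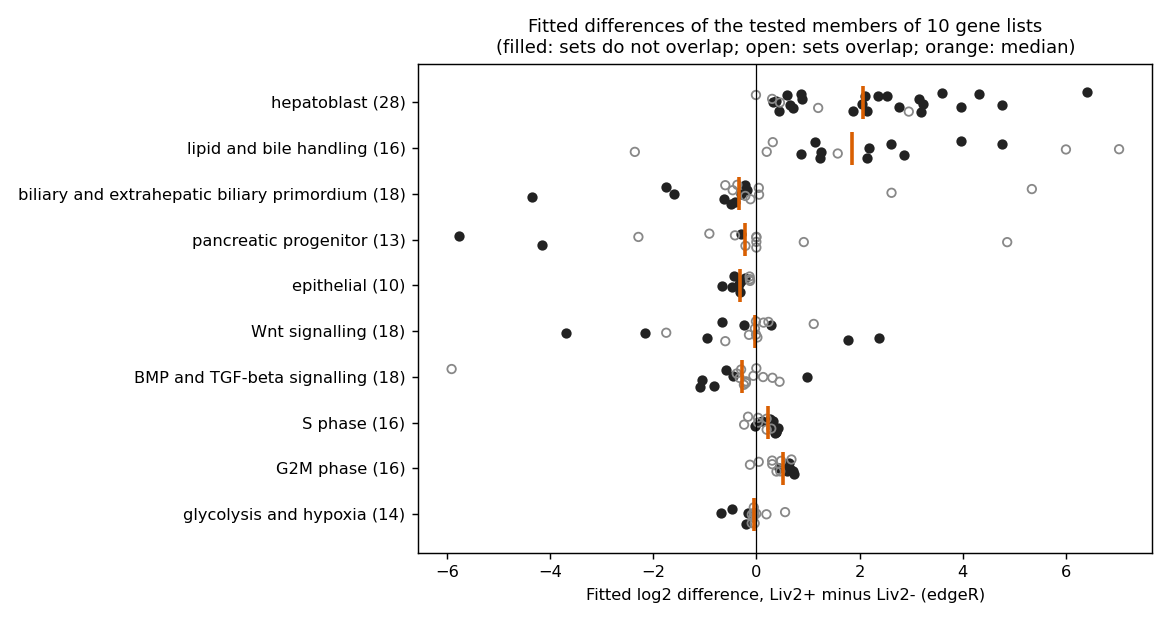
Log2 fold change, Liv2+ over Liv2-, of every tested member of 10 gene lists in the edgeR fit, one row per list; each point is a gene, filled where the sets of the gates do not overlap, and orange bars are medians. A positive value means a higher level in Liv2+ sets. The hepatoblast row is centred at a median of 2.07, the lipid and bile row at 1.86 and the biliary row at -0.34, while the median of all genes tested is 0.00.

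Across all 17433 genes tested, edgeR's quasi-likelihood test called 0 genes higher and 0 genes lower in Liv2+ than in Liv2- sets at a Benjamini-Hochberg adjusted p under 0.05. At an unadjusted p under 0.05 it gave 106 higher and 97 lower genes. The spread that entered this fit was that of all 37 sets, many of few cells and some of them dorsal or at E9.5. Its common biological coefficient of variation was 0.859, against 0.511 in a fit of the 4 gated sets alone.

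Other fits called a few genes, 40 in all. The 4 gated sets alone gave 2 higher genes (0.0129% of 15445) and 0 lower, Fga (log2 fold change 6.43, SE 0.28, adjusted p = 0.0127 in edgeR) and Fgb (log2 fold change 3.19, SE 0.18, adjusted p = 0.0294 in edgeR). limma-voom with set weights, added after the data were seen, gave 7 higher genes (0.0402%) and 1 lower (0.00574%). The higher ones were Fgg (log2 fold change 3.12, limma adjusted p = 0.00143), Serpinf2 (1.64, adjusted p = 0.00626), Apoe (1.22, adjusted p = 0.0130), Apom (2.08, adjusted p = 0.0138), Lpl (1.79, adjusted p = 0.0247), Otc (adjusted p = 0.0336) and Raph1 (1.01, adjusted p = 0.0464). Serpinf2 is the plasma inhibitor of plasmin, Apoe a lipoprotein component, Lpl lipoprotein lipase, Otc an enzyme of the urea cycle and Raph1 an actin regulator of the cell edge.

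The values behind these calls did not overlap between gates. Serpinf2 had 769 and 626 CPM in the Liv2+ sets, against 283 and 163 CPM in the Liv2- sets. Apoe had 994 and 1062 CPM in the Liv2+ sets, against 459 and 411 CPM in the Liv2- sets. Otc had 3.66 and 8.89 CPM in the Liv2+ sets and no reads in the Liv2- sets. In the Liv2- gate, 3 reads over both sets would be 0.0447 CPM without the TMM factor. The lower gene was Peg3, a paternally expressed imprinted gene, with 1480 and 1284 CPM in the Liv2+ sets, against 2916 and 2765 CPM in the Liv2- sets (log2 fold change -1.04, limma adjusted p = 0.0130).

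DESeq2 called 9 genes higher (0.0524%) and 20 lower (0.116%) of 17189 with an adjusted p. Of these 29 genes, 27 had no reads in one of the gates and 27 stayed under 5 CPM in every gated set. The exceptions at higher counts included Trf, higher in Liv2+ sets (log2 fold change 4.31, DESeq2 adjusted p = 0.0224), and Nkx6-2, lower in Liv2+ sets (log2 fold change -5.95, DESeq2 adjusted p = 0.00621). No gene was called by more than 1 fit. The sign of each of the 28 genes whose changes are printed here was the same in edgeR over 37 sets, edgeR over the 4 gated sets, DESeq2 and limma-voom.

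Expression was next described cell by cell, with a cut at 10 CPM in a cell. Every one of 54 Liv2+ cells and 58 of 59 Liv2- cells held Afp above it, so the gates differed in the amount of Afp. The quartiles of Afp were 744, 2158 and 6587 CPM in Liv2+ cells, against 505, 1090 and 2324 CPM in Liv2- cells, while those of the 23 liver bud cells were 18247, 26676 and 35532 CPM. The Afp levels of the 2 gates overlapped over most of their range, and the gap between the gates was widest above the upper quartile.

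Fga was present in a subset of the Liv2+ cells. It was at 10 CPM or more in 19 of 54 Liv2+ cells (35.2%, exact 95% interval for counting error 22.7 to 49.4%) and in 2 of 59 Liv2- cells (3.39%, 0.413 to 11.7%). The Liv2+ count was 13 in set 1 and 6 in set 2, and the Liv2- count was 1 in each set. All 23 liver bud cells passed the cut, as did 5 of 39 ungated Pdx1-low cells and 3 of 39 Pdx1-GFP-high cells. Alb was at 10 CPM or more in 27 of 54 Liv2+ cells (50.0%, 36.1 to 63.9%), against 20 of 59 Liv2- cells (33.9%, 22.1 to 47.4%), and in 2 of 39 Pdx1-GFP-high cells. The share of Alb cells in the Liv2+ sets was 21 of 37 in set 1 and 6 of 17 in set 2, so the sets of this gate differed more than the gates did.

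**Figure D3:**
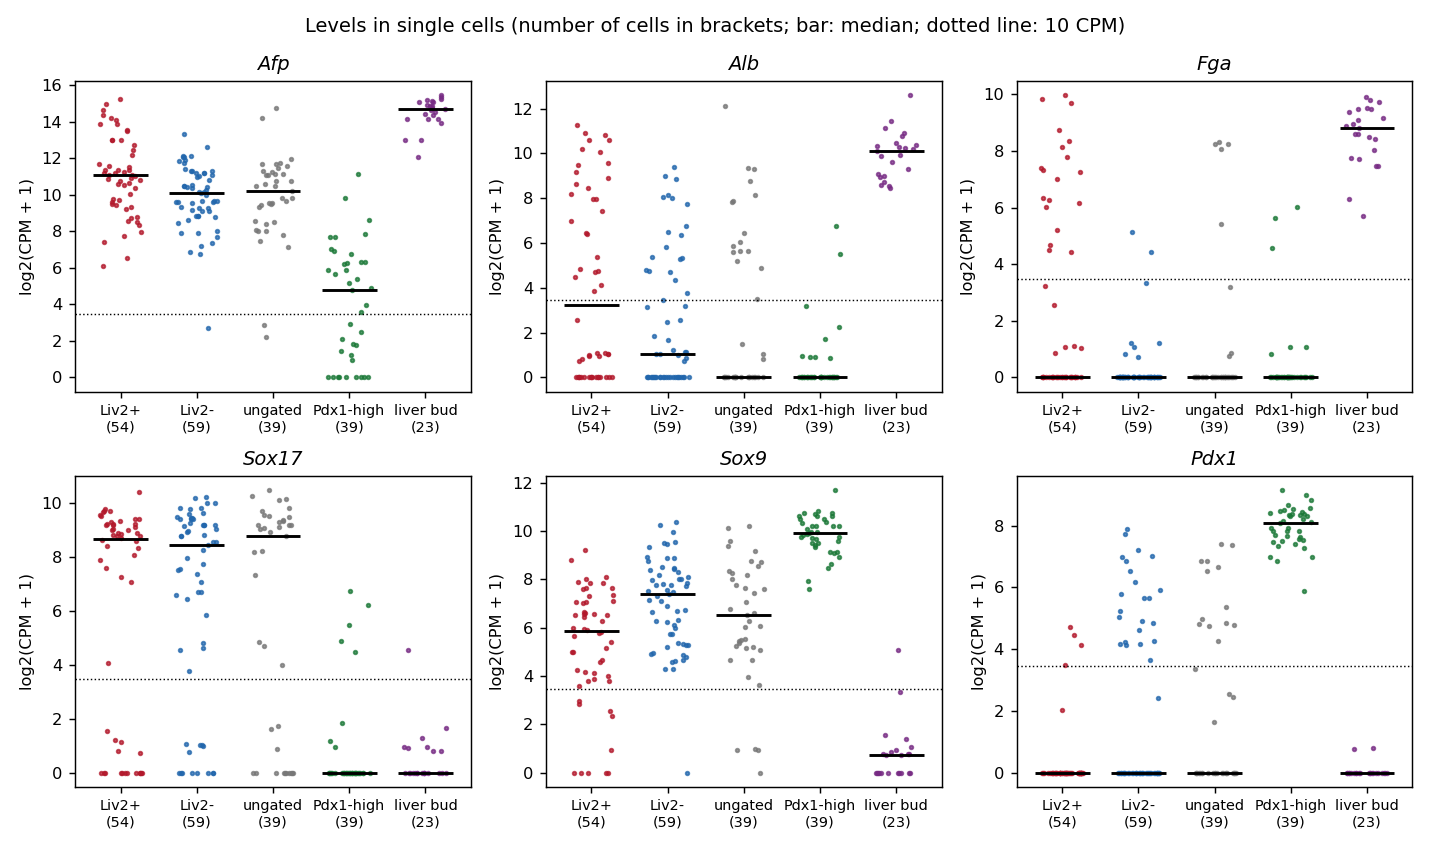
Level of single genes in each cell on a log2(CPM + 1) scale for Liv2+, Liv2-, ungated Pdx1-low, Pdx1-GFP-high and liver bud cells; each point is a cell, bars are medians and dotted lines mark 10 CPM. Afp overlaps between the gates over most of its range, with medians of 2158 CPM in Liv2+ and 1090 CPM in Liv2- cells, whereas Fga is at 10 CPM or more in 19 of 54 Liv2+ cells and 2 of 59 Liv2- cells, and Pdx1 in 4 of 54 Liv2+ cells and 23 of 59 Liv2- cells.

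The number of hepatoblast genes at 10 CPM or more in a cell, of the 28 listed, ran from 9 to 27 in Liv2+ cells, with a median of 17 and quartiles of 14 and 22. In Liv2- cells it ran from 8 to 22, with a median of 14 and quartiles of 12.5 and 15. Liver bud cells held 24 to 28 of these genes. The highest count of any Liv2- cell was 22, and 12 of 54 Liv2+ cells lay above it, as did 3 of 39 ungated cells. Of the Liv2+ cells 10 reached the lowest liver bud count of 24, against 0 of 59 Liv2- cells. Pdx1-GFP-high cells held 7 to 14 of the genes, with a median of 11. For the 21 biliary genes the medians were 12 in Liv2+ cells, 13 in Liv2- cells and 8 in liver bud cells.

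**Figure D4:**
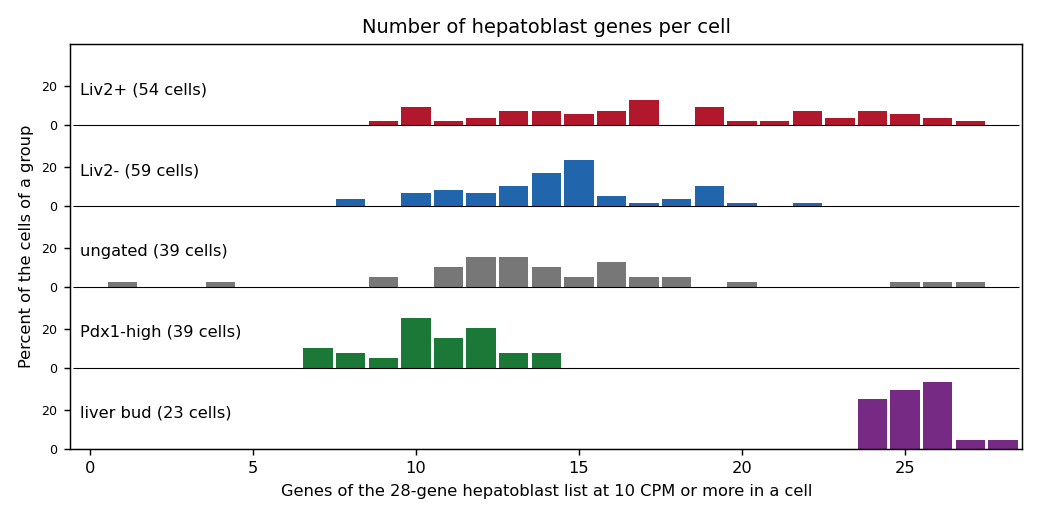
Distribution of the number of hepatoblast genes at 10 CPM or more in a cell, as a percent of the cells of each group, for 54 Liv2+, 59 Liv2-, 39 ungated, 39 Pdx1-GFP-high and 23 liver bud cells. Liv2+ cells spread from 9 to 27 and reach into the liver bud range of 24 to 28, which no Liv2- cell does.

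Within the Liv2+ gate some liver genes were found mainly in the cells without Sox17 and others in both kinds of cell. Sox17 was at 10 CPM or more in 37 of 54 Liv2+ cells and in 46 of 59 Liv2- cells, against 1 of 23 liver bud cells and 5 of 39 Pdx1-GFP-high cells. In Liv2+ cells no value lay between 1.89 and 15.6 CPM, and 12 cells had no Sox17 reads, so the cut fell in a gap. Of the 17 Liv2+ cells under the cut, 17 held Alb, 16 Fga and 16 Trf at 10 CPM or more. Of the 37 Liv2+ cells with Sox17, 10 held Alb, 3 Fga and 2 Trf. Other hepatoblast genes were less separated: among the 37 Liv2+ cells with Sox17, 25 held Apoa2, 20 Fgg, 15 Fgb and 12 Apoa1, beside 16, 17, 17 and 16 of the 17 cells without it. Afp, Ttr and Ambp were at 10 CPM or more in all 37 and all 17. At higher levels, Apoa1 reached 100 CPM in 15 of the 17 cells without Sox17 and in 0 of the 37 cells with it, and Afp reached 10000 CPM in 10 of the 17 and in 0 of the 37. Ttr reached 1000 CPM in 15 of the 17 and in 9 of the 37, and Apoa2 reached 100 CPM in 11 of the 17 and in 6 of the 37.

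The split was present in both Liv2+ sets. In set 1, 12 cells were under the Sox17 cut, of which 12 held Alb and 11 held Fga. In set 2, 5 cells were under it, and all 5 held both genes. The number of hepatoblast genes in a cell ran from 19 to 27, with a median of 24, in the 17 Liv2+ cells without Sox17, and from 9 to 22, with a median of 15, in the 37 with it. All 54 cells had passed the Liv2+ gate. The comparison of cells within a gate is a description, since cells of a set are not replicates and share their source.

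The same cut gave another picture in the Liv2- gate. Of 13 Liv2- cells under the Sox17 cut, 9 held Alb, 0 held Fga and 4 held Trf, and of 46 cells with Sox17, 11 held Alb, 2 Fga and 0 Trf. The median number of hepatoblast genes was 14 in both kinds of Liv2- cell. Pdx1 was at 10 CPM or more in 10 of the 13 cells without Sox17, beside 13 of the 46 cells with it. Nkx6-2 was so in 6 of the 13, beside 2 of the 46. No Liv2- cell held more than 5 of the 13 listed pancreatic genes. Of 20 biliary genes other than Sox17, the cells without Sox17 held a median of 13, beside 12 in those with it. Spearman's correlation of Sox17 with Alb over cells was -0.72 in 54 Liv2+ and -0.41 in 59 Liv2- cells. That of Sox17 with Pdx1 was -0.03 in Liv2+ cells and -0.50 in Liv2- cells. Pdx1 had no reads in 49 of 54 Liv2+ and 35 of 59 Liv2- cells. With so many ties at 0, the value in Liv2+ cells cannot show whether the relation is absent there. All of these values are descriptions over cells that share sets and depth, and the difference between gates was not tested.

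**Figure D5:**
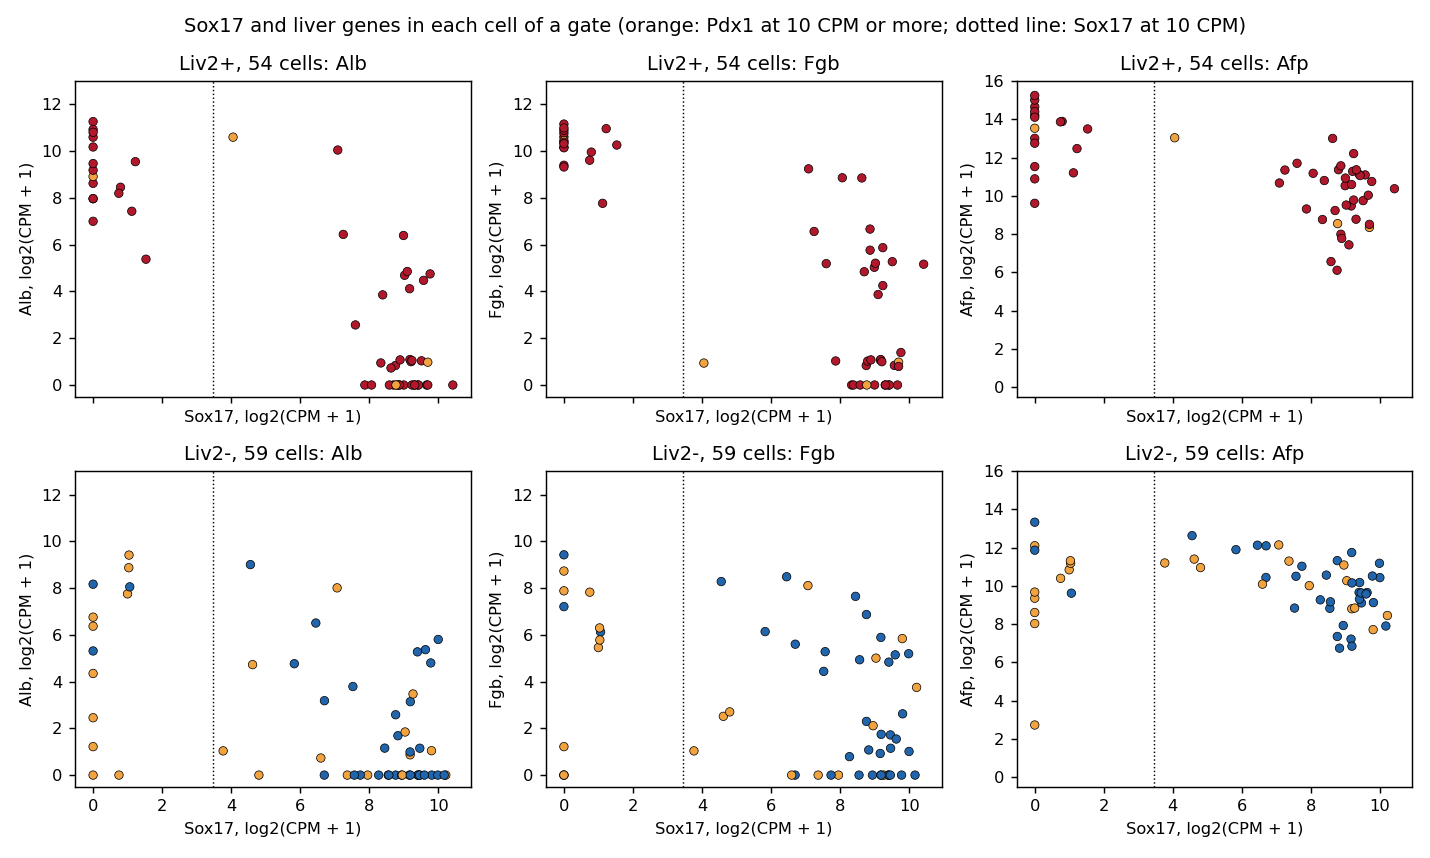
Sox17 (horizontal axis) against Alb, Fgb and Afp (vertical axis) in single cells, all on a log2(CPM + 1) scale, with Liv2+ cells in the upper row and Liv2- cells in the lower row. Each point is a cell, orange points hold Pdx1 at 10 CPM or more, and the dotted line marks Sox17 at 10 CPM. In Liv2+ cells the 17 cells left of the line all hold Alb at 10 CPM or more, while 10 of the 37 cells right of it do.

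Pdx1 RNA itself was found in few of the cells of its low gate. It was at 10 CPM or more in 4 of 54 Liv2+ cells (7.41%, 2.06 to 17.9%), against 23 of 59 Liv2- cells (39.0%, 26.5 to 52.6%). It was above the cut in 13 of 39 ungated Pdx1-low cells and 39 of 39 Pdx1-GFP-high cells, and in 0 of 23 liver bud cells, whose highest value was 0.757 CPM. The Liv2- cells with Pdx1 also held other genes of the ventral pancreatic and biliary border. Of 23 Liv2- cells with Pdx1, 18 held Sfrp5, 8 Spp1 and 7 Nkx6-2, beside 8, 0 and 1 of the 36 cells without it. Krt19 was found in 23 of 23 cells with Pdx1 and 29 of 36 without, and Sox17 in 13 of 23 and 33 of 36.

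Krt19 and Sox9 had a lower level and a lower share of cells in the Liv2+ gate, differences that were not tested over cells. Krt19 was at 10 CPM or more in 30 of 54 Liv2+ cells (55.6%, 41.4 to 69.1%), against 52 of 59 Liv2- cells (88.1%, 77.1 to 95.1%), and in 3 of 23 liver bud cells. Sox9 was at 10 CPM or more in 44 of 54 Liv2+ cells (81.5%, 68.6 to 90.7%), against 58 of 59 Liv2- cells (98.3%, 90.9 to 100%), and in 1 of 23 liver bud cells. The median level of Sox9 was 57.1 CPM in Liv2+ cells and 170 CPM in Liv2- cells.

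The 5 ungated Pdx1-low sets that could be tested were separate sets of cells, sorted with no Liv2 gate. Their Afp ran from 906 to 6899 CPM, with a median of 2202 CPM, which spans the sets of both gates. Fga ran from 0 to 56.5 CPM in the ungated sets, below the 94.1 and 104 CPM of the Liv2+ sets. Sox17 ran from 353 to 484 CPM and Pdx1 from 5.43 to 25.4 CPM in the ungated sets. The mesenchyme list summed to 141 to 2428 CPM in the ungated sets, against 138 to 211 CPM in the gated sets. In ungated set 6, a cell with 3.58 CPM and another with 6.44 CPM of Afp had no Hhex reads. They held 4 and 1 of the 28 hepatoblast genes at 10 CPM or more. The part of such cells in the ungated values and contrasts was not tested. The Liv2+ sets lay below all ungated sets in Pdx1 (log2 fold change -4.01, SE 1.18), and the Liv2- sets were within 0.15 (SE 0.91) of the ungated sets on the log2 scale; edgeR gave an adjusted p of 1 to both.

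In edgeR 0 genes passed in Liv2+ minus ungated sets, with 352 higher (2.02%) and 170 lower (0.975%) at an unadjusted p under 0.05. In Liv2- minus ungated sets 0 genes passed, with 417 higher (2.39%) and 153 lower (0.878%). DESeq2 called 47 genes in Liv2+ minus ungated and 52 in Liv2- minus ungated sets, and limma-voom called 1 and 0. These contrasts share the ungated sets. One further gene separated gated from ungated cells in a way the Liv2 gate does not: glucagon (Gcg), the hormone of early endocrine cells, was at 10 CPM or more in 0 of 113 gated cells, beside 21 of 39 ungated, 20 of 39 Pdx1-GFP-high and 11 of 23 liver bud cells. Set numbers restart within each sorted group, and no label says whether gated and ungated sets share a sort, day or plate. Whether these have a part in the Gcg difference was not tested.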

How the data were processed

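Single cells were prepared by Smart-seq2, per the labels' protocols, and the reads were aligned with TopHat2 2.1.0 and Bowtie2 to GRCm38 (mm10) and counted with HTSeq 0.6.0, per the submitters' processing notes. Which annotation release was used is not given in the sources used here. Whole-number read counts for 40824 genes and 92 spike-ins in 447 cells were deposited by the authors, and spike-ins were left out of totals. Counts were summed over the cells of each numbered set, and 37 sets of 3 or more cells in 11 groups entered one fit. These groups were ventral and dorsal Pdx1 cells at E9.5 and E10.5 and liver bud cells at E10.5. The 4 sets left out held 9 cells in all. RPKM were computed here from the counts and gene lengths.

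After filterByExpr and TMM scaling, edgeR 4.0.16 in R 4.3.3 ran the quasi-likelihood test, with Benjamini-Hochberg adjustment over 17433 genes and a threshold of 0.05. With 2 sets a gate, an exact permutation test of 1 gene could not go below p = 0.333. Counts with known changes were simulated with the spread of the fit over 37 sets. On these counts the main edgeR fit, DESeq2 and limma-voom each missed most of the changes, and DESeq2 made the most false calls. A count of 0 called genes is therefore no sign that the gates are alike. The fit of the 4 gated sets alone found none of the changes. The spread used was wider (biological coefficient of variation 0.859) than that of those 4 sets (0.511), so the simulation cannot rate that fit. Alternatives were the 4 gated sets alone, sets of 5 or more cells, a test against a 1.5-fold change, cells thinned to 200000 reads, a replicate block, DESeq2 1.42.0, unfiltered genes, RLE scaling and each set left out; limma 3.58.1 (voomLmFit with set weights) and leaving out each ungated set were chosen after seeing the data. Shares of cells carry exact 95% Clopper-Pearson intervals, which cover counting error only. Genes at 10 CPM or more in a cell were counted as present, with 1 and 100 CPM as alternatives.

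The members and the 22 gene lists (318 genes) were chosen with earlier results of these data known. The text names Afp, Alb, Sox17, Hhex and Pdx1, any gene past a threshold, up to 4 members of each list by smallest p, and hepatoblast and biliary genes for levels over cells; other genes were named after their values were seen. Gene coordinates follow GENCODE vM21, and promoter windows are RefSeq's. Some members of the lists are counted in the list totals but not reported singly here.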

Additional observations from a re-analysis of the deposited data

Results flagged for a closer look

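Among the 5 ungated ventral Pdx1-low sets, 1 set lay far from the other 4 in Afp, at 6899 CPM, where the median was 2202 CPM. This set, number 3, had 6 cells, with 28327 CPM of Afp in the highest cell and 2797 CPM in the next. In Pdx1, the lowest ungated set lay far from the other 4 at 5.43 CPM, where the median was 23.2 CPM. This set, number 5, had 5 cells, and its Pdx1 reads came from a cell at 27.6 CPM, while the others had none. The gap to the nearest set, as a share of the whole range, was above Dixon's 95% critical value in each case, and chance gives such a gap in about 1 in 20 groups. The highest and the lowest set were examined for 11 genes, 22 gaps in all, of which these were the 2 past the value. Each contrast with the ungated sets includes these values.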

How the results depend on the processing

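Of the 28 printed gene changes, Sox17 alone turned its sign, and only when a set was left out: its log2 fold change ran from -0.20 (without Liv2+ set 2) to 0.30 (without Liv2+ set 1), and was -0.01 without Liv2- set 1. Counts of genes past the threshold differed by tool. Against 0 in edgeR over 37 sets, the higher genes in Liv2+ minus Liv2- were 2 with the 4 gated sets alone, 7 with limma-voom and 9 with DESeq2, and the lower genes were 1 with limma-voom and 20 with DESeq2; the cause was not tested. Leaving out 1 gated set gave 0 higher and 0 to 1 lower genes, the 1 being B3galnt1 without Liv2+ set 1. In Liv2+ minus ungated sets limma-voom called 1 gene, DESeq2 47, and leaving out a set 0 to 1; in Liv2- minus ungated sets DESeq2 called 52 and leaving out a set 0. RLE scaling, no filter, sets of 5 or more cells, thinned cells and a test against a 1.5-fold change gave 0 in all contrasts. Cell shares moved with the cut. At 100 CPM Alb was at 33.3% of Liv2+ and 13.6% of Liv2- cells, Fga at 20.4% and 0%, and Pdx1 at 0% and 10.2%; at 1 CPM Alb was at 52.5% of Liv2- cells. By set, Alb was at 10 CPM or more in 35.3% to 56.8% of Liv2+ cells, the lower value without set 1. Thinned to 200000 reads, none of the 8 shares moved beyond its interval.

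The gates share set numbers. With a replicate block by set number edgeR gave 0 higher and 0 lower genes, with 79 and 59 at an unadjusted p under 0.05. The difference of set 1 and set 2 correlated between the gates at r = 0.379 across 9364 genes, which are not independent, and nothing in the labels says that a number marks a shared litter, day or plate. With 2 sets a gate, the precision of each gene rests on the spread borrowed from other groups.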

Other observations

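Beyond the listed genes, the largest differences between the gates were picked after their values were seen, by a 4-fold ratio on CPM + 1, 20 CPM or more in a gate and no overlap between sets. There were 28 higher genes, of which 13 were on the hepatoblast list, and 13 lower genes. The higher ones outside the list were again mostly genes of secreted liver proteins. Serpind1, heparin cofactor II, had 62.2 and 72.4 CPM in the Liv2+ sets, against 1.26 and 0 CPM in the Liv2- sets. Hpx, the heme carrier hemopexin, had 33.7 and 58.7 CPM in the Liv2+ sets, against 2.78 and 0.376 CPM in the Liv2- sets. Sepp1, which carries selenium in plasma, had 153 and 190 CPM in the Liv2+ sets, against 27.0 and 19.9 CPM in the Liv2- sets. For all 28 both liver bud sets lay above both Liv2+ sets, beside 20.7% of all genes tested.

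Among the 13 lower genes, Nepn, a small leucine-rich proteoglycan known from mouse foregut, differed between the Liv2- sets, with 1.38 and 8.64 CPM in the Liv2+ sets, against 185 and 22.9 CPM in the Liv2- sets. Only 1 Liv2- cell reached 1000 CPM of Nepn, at 7185 CPM, and the median over the 59 Liv2- cells was 0 CPM. At 10 CPM or more Nepn was found in 7 of 41 and 4 of 18 cells of the Liv2- sets 1 and 2. Spock3, a matrix proteoglycan, had 3.71 and 0 CPM in the Liv2+ sets, against 37.4 and 27.9 CPM in the Liv2- sets. Enpp1, an ectoenzyme that makes pyrophosphate, had 17.2 and 13.3 CPM in the Liv2+ sets, against 97.2 and 65.4 CPM in the Liv2- sets. For 8 of the 13 both liver bud sets lay below both Liv2+ sets, beside 28.2% of all genes tested, and for all 13 they lay below both Liv2- sets, the gate in which these genes were chosen to be high. None of the 28 higher or 13 lower genes passed in edgeR over 37 sets, where every adjusted p was 1.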
